A study of Mus musculus with 18 samples.

Results

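The presynaptic vesicle and release machinery was followed as a set of 41 genes that encode vesicle proteins, fusion proteins, active zone scaffolds and endocytic proteins of the nerve terminal. The members were given as a list of names, drawn up with earlier results of these data known, and each was matched by symbol to 1 of the 43629 Ensembl gene IDs in the count table. All 41 members passed the filter on low counts and were tested among 15671 genes, so none was lost to depth. Poly(A) RNA was sequenced from 18 mouse cortical neuron cultures that had received a lentivirus on day 7 in vitro and were harvested 10 days later. The mSc group (6 libraries) carried the red fluorescent protein mScarlet as the control, the Psmb5 group (6 libraries) carried the constitutive proteasome subunit Psmb5, and the Psmb8 group (6 libraries) carried the immunoproteasome subunit Psmb8. Strain, age of the donor animals, promoter and titre of the viruses are not stated in the sources used here. All groups share the viral transduction, and no untransduced culture is among them. The treatment tags give these 3 constructs, while a protocol field mentions Ifng for all samples. The libraries of each group carry the numbers 1 to 6, and the labels do not say whether a number is an animal, a dissection or a batch, so each p-value rests on differences among these libraries, part of which may be technical.

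A nerve terminal stores transmitter in small vesicles, docks and primes them at the active zone, fuses them with the plasma membrane when calcium enters, and recovers their membrane by endocytosis. Fusion is driven by the SNARE complex of a vesicle protein (synaptobrevin, encoded by Vamp1 and Vamp2) with syntaxin (Stx1a) and SNAP-25 (Snap25) on the plasma membrane. Synaptotagmins sense calcium, complexins act on the assembled SNAREs, and RIM, Munc13, Bassoon and Piccolo organise the release site. In cortical neurons in culture these genes are switched on as the cells form synapses.

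Promoter sequence of 4 members is shown because each holds a motif of a regulator known from neuronal or housekeeping promoters, and because each of the 4 genes differed between replicate numbers. RefSeq start sites of GRCm38.p6 gave windows of 250 bases before to 50 bases after the start for 31 of the 41 members (42 windows) and 32851 promoters in all. Only the 250 bases before the start were searched for motifs, on both strands. The letters sought were TGACGTCA (the cAMP response element) and TTCAGCACC (the left part of the RE1 element bound by REST, a repressor of neuronal genes). The right part of RE1, both parts joined, and the palindromic NRF1 site were sought as well. Capitals mark the matched letters, and every sequence reads 5′ to 3′ on the strand of its gene. The stretches lie at chrX:20921045-20921168 (minus strand), chr4:85205408-85205437 (plus strand), chr9:108190385-108190556 (minus strand) and chr10:9901205-9901264 (minus strand).
Syn1: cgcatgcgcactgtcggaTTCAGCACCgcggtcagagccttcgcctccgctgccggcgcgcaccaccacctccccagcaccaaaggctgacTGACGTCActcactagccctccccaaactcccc
Sh3gl2: atcacccgcccTGACGTCAgggtgtctctc
Bsn: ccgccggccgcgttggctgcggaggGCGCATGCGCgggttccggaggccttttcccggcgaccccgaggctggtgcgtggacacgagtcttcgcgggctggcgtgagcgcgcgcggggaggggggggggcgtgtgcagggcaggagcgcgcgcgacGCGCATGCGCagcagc
Stxbp5: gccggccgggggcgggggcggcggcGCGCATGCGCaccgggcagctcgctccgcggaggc
The Syn1 stretch holds TTCAGCACC and TGACGTCA, the Sh3gl2 stretch TGACGTCA, the Bsn stretch 2 copies of the NRF1 site and the Stxbp5 stretch 1 copy. TGACGTCA was present in 2 members and in 1.55% of all promoters, and the NRF1 site in 2 members and in 0.782%. TTCAGCACC was present in 1 member and in 0.301% of all promoters. The right part of RE1 and the joined parts were in none of the 42 windows before the start, against 0.0974% and 0.0335% of all promoters. The median GC content of the member windows was 62.7% (31 windows, the first listed per gene), against 52.7% over all promoters, and 27 of the 31 lay above that overall median. The Syn1, Bsn and Stxbp5 stretches lie upstream of the gene, and the Sh3gl2 stretch lies inside the gene as GENCODE annotates it. A match is a stretch of letters and not a measured binding site.

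Library totals were 15337511 to 21074229 counts in mSc, 16055974 to 19640543 in Psmb5 and 16091906 to 18630396 in Psmb8, and the 41 members together took 1.52% to 1.78% of them. Psmb5 reached 238 to 561 CPM (counts scaled to the TMM-adjusted library size) in Psmb5 cultures against 41.03 to 51.1 CPM in the other groups, and Psmb8 reached 546 to 1056 CPM in Psmb8 cultures against 0.488 to 19.4 CPM elsewhere. Ifng had 1, 3 and 7 counts in all in the mSc, Psmb5 and Psmb8 groups. All 15 general neuronal markers were tested, with a summed level of 5394 to 6126 CPM. Astrocyte markers (17 of 17 tested) were also present, while 10 of 13 microglia markers were too low to test, among them Tmem119 with 1 count over all libraries, and the endothelial gene Cldn5 had 0 counts. Libraries stood apart by number and not by group. Summed astrocyte markers were 6685 to 7852 CPM in the 3 libraries numbered 1 and 2839 to 3435 CPM in the other 15. Summed interferon-stimulated genes (20 of 22 tested) were 692 to 1018 CPM in the libraries numbered 6, 343 to 495 CPM in those numbered 3 and 119 to 169 CPM in the other 12. In bulk RNA, fewer neurons and less transcript per neuron cannot be told apart.

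Transcript levels of the machinery spanned from among the most abundant in the cultures to barely detected. On the scale of CPM per kilobase of exon, averaged over 18 libraries, Syp (synaptophysin, the tetraspan protein of the vesicle membrane) was the highest member at 466, followed by Vamp2 at 366 and Snap25 at 268, and each of these stood above 99% of tested genes. Syt1, the calcium sensor of fast release, stood at 189 CPM per kilobase, Syn1 at 185, Dnm1 at 181 and Sncb at 179.9. The ranges of these 4 neighbours over the libraries overlapped. In some families 1 or 2 members carried most of the transcript, and in others it was shared. Vamp2 stood at 366 against 10.1 CPM per kilobase for Vamp1, Unc13a at 61.8 against 3.12 for Unc13b, Rims1 at 26.2 against 4.92 for Rims2, and Sv2a and Sv2b at 167 and 126 against 1.56 for Sv2c. Of the synapsins, Syn1 and Syn2 stood at 185 and 105 CPM per kilobase and Syn3 at 3.39. Levels lay closer together for Syngr1 and Syngr3 (154 and 143), Cplx2 and Cplx1 (119 and 81.9), and Syt1, Syt5 and Syt4 (189, 164 and 132). Bsn was 34.9 and its relative in size, Pclo, 5.98 CPM per kilobase. Syt2, the fast calcium sensor best known from brainstem and spinal synapses, was the lowest member at 0.155 CPM per kilobase, with as few as 11 counts in a library.

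**Figure D1:**
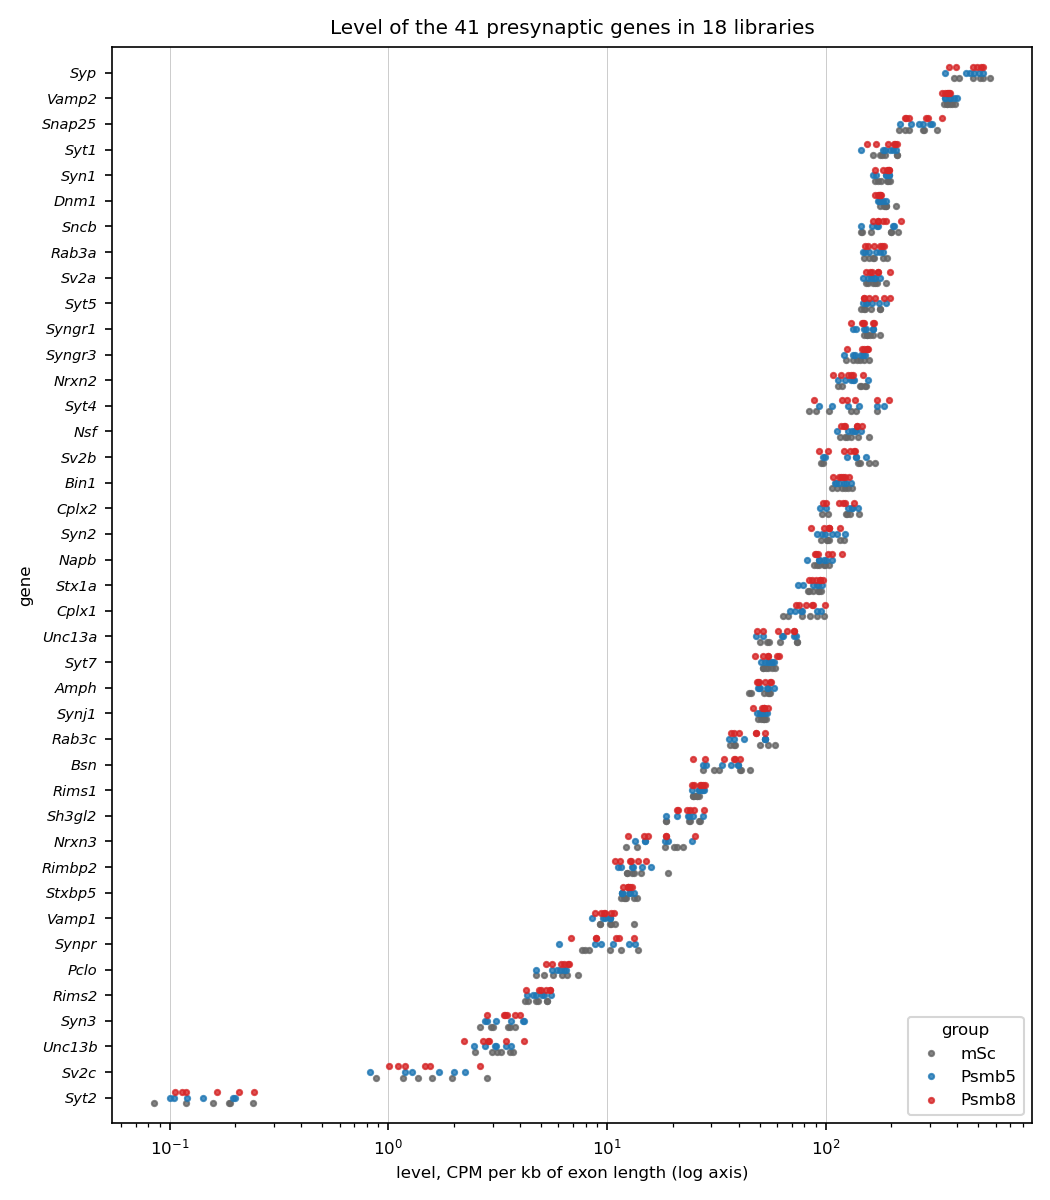
Level of each of the 41 genes in each of the 18 libraries, in CPM per kilobase of exon on a log axis; every point is a library, coloured by group, and genes are sorted by their mean. Syp, Vamp2 and Snap25 lead, Sv2c and Syt2 close the order, and within each gene the points of the 3 groups lie over each other.

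Lengths were taken from GENCODE's GRCm38 models, and a gene whose exons overlap another gene cannot be separated from it without knowing the strand setting of the counting. Syn3 (synapsin III) shares 1733 exon bases with Timp3 on the opposite strand, and Timp3 had 241% of the counts of Syn3, so the values of Syn3 are uncertain. Unc13a shares 495 bases with Colgalt1, which had 18.3% of its counts. For the other members with an overlapping partner, the partner had less than 0.4% of the member's counts.

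The first question was whether presynaptic transcripts differed between cultures that overexpressed a proteasome subunit and control cultures. No member passed the threshold in any of the 3 comparisons (adjusted p under 0.05 by edgeR's quasi-likelihood test, with Benjamini-Hochberg adjustment over 15671 genes), and the group ranges of all 41 members overlapped in every comparison. In Psmb8 against mSc 0 of 41 members were called, with 0.00638% of all genes called, in Psmb5 against mSc 0 of 41 with 0.00638%, and in Psmb8 against Psmb5 0 of 41 with 0.0128%. Since libraries of the same number resembled each other, the number was also fitted as a block. Again 0 of 41 members were called in each comparison by edgeR, DESeq2 and limma-voom, while edgeR called 0.325%, 0.00638% and 0.0383% of all genes. The block reduced the median SE of the members' log2 fold changes from 0.09 to 0.04 in Psmb8 against mSc.

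At an unadjusted p under 0.05 in the blocked edgeR fit, 1 member lay higher and 5 lower in Psmb8 than in mSc, 14.6% of the members against 10.7% of all genes. In Psmb5 against mSc 1 lay higher and 2 lower, 7.32% of the members against 6.87% of all genes, and in Psmb8 against Psmb5 there were 0, against 7.64%. Without the block the counts were 1, 0 and 0 members, against 2.17%, 0.944% and 1.33% of all genes. With DESeq2, which was run on every gene with at least 1 count, the blocked fit gave the same 14.6% and 7.32% of members, against 4.35% and 2.59% of all genes. Whether the members' shares differ from those of all genes was not tested. The median log2 fold change of the 41 members in the blocked fit was 0.005 in Psmb8 against mSc, -0.012 in Psmb5 against mSc and 0.004 in Psmb8 against Psmb5, and over all tested genes it was 0.001, 0.002 and less than 0.001 in size. With the block, the 95% confidence interval of the log2 fold change lay within ±0.3 (from 18.8% lower to 23.1% higher) for 38, 39 and 40 of the 41 members in the same order. In the main fit, without the block, it did so for 29, 31 and 32 members. The median half-width in Psmb8 against mSc was 0.196 without the block and 0.088 with it. The 3 comparisons share libraries, so their values are not independent.

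**Figure D2:**
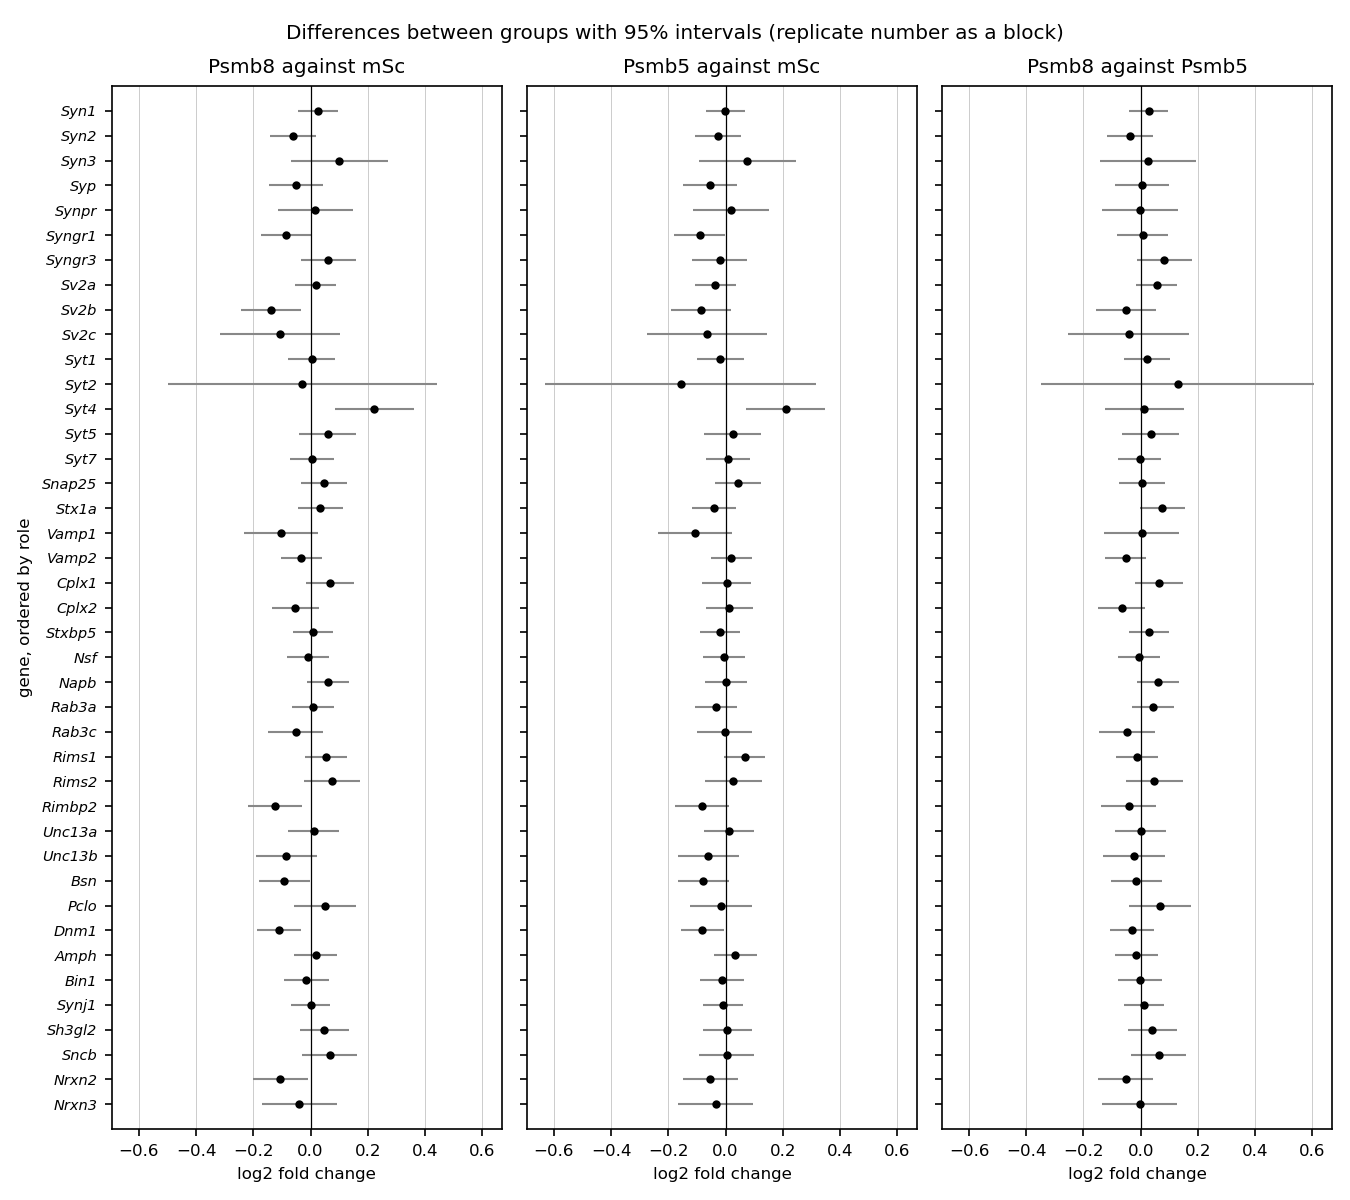
Log2 fold change of each of the 41 genes in the 3 comparisons, with the replicate number as a block; points are estimates, bars are 95% confidence intervals, and the vertical line marks no difference. Most intervals are short and lie within ±0.3; Syt4 lies to the right in both comparisons with mSc, and the wide bars belong to Syt2, which has few counts.

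Among synaptotagmins, Syt4 had the smallest blocked p in both comparisons with mSc. Syt4 encodes a synaptotagmin found on dense-core and other neuronal vesicles, whose transcript is induced by depolarisation. Its lowest, median and highest levels were 327, 456 and 669 in mSc, 363, 523 and 721 in Psmb5, and 346, 511 and 759.9 in Psmb8 (CPM, n = 6 each). The groups overlapped over most of their range, and in each group the lowest library was numbered 2 or 4 and the highest 3 or 6. Within same-numbered pairs Syt4 was higher in Psmb8 than in mSc in 6 of 6 and in Psmb5 than in mSc in 5 of 6. Rims2 was also higher in Psmb8 than in mSc in 6 of 6. How many of all genes kept 1 direction in 6 of 6 pairs was not counted, here or below. The blocked log2 fold change of Syt4 was 0.22 (SE 0.07, adjusted p = 0.18) for Psmb8 and 0.21 (SE 0.07, adjusted p = 0.53) for Psmb5, by edgeR's quasi-likelihood test. Without the block it was 0.22 (SE 0.21) and 0.20 (SE 0.21). Neither passed over all genes. Psmb8 against Psmb5 gave 0.01 (95% interval -0.13 to 0.15). Leaving out the Psmb8 library numbered 6 brought the value without the block to 0.10 in Psmb8 against mSc, and leaving out the Psmb5 library numbered 3 brought it to 0.10 in Psmb5 against mSc. With the block, of the other synaptotagmins the sparse Syt2 gave -0.03 (SE 0.23) and -0.16 (SE 0.23), Syt1 0.004 and -0.02, Syt5 0.06 and 0.02, and Syt7 0.01 and 0.01 in Psmb8 and Psmb5 against mSc.

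Dnm1 encodes dynamin 1, the GTPase that pinches endocytic vesicles off the plasma membrane. Its lowest, median and highest levels were 859.5, 905 and 1013 in mSc, 838, 851 and 908 in Psmb5, and 811, 851 and 861 in Psmb8 (CPM). Dnm1 was lower in Psmb8 than in mSc in 6 of 6 same-numbered pairs and in Psmb5 than in mSc in 5 of 6. Psmb8 and mSc overlapped only between 859.5 CPM, the lowest mSc library, and 861 CPM, the highest Psmb8 library, while Psmb5 reached 908 CPM and overlapped mSc over a wider range. The blocked log2 fold change was -0.11 (SE 0.04, adjusted p = 0.24) in Psmb8 and -0.08 (SE 0.04, adjusted p = 0.70) in Psmb5 (edgeR), which did not pass over all genes. The highest mSc library, numbered 4, lay at 1013 CPM, and without the libraries of that number the value for Psmb8 was -0.07. Of the other endocytic members, Amph, Bin1, Synj1 and Sh3gl2 gave 0.02, -0.01, less than 0.001 in size and 0.05 in Psmb8 against mSc.

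The remaining members with an unadjusted p under 0.05 in Psmb8 against mSc were all lower in Psmb8. Sv2b, a transporter-like glycoprotein of the vesicle membrane, had lowest, median and highest levels of 563, 841 and 993 in mSc, 573, 775 and 904 in Psmb5, and 554, 741 and 809 in Psmb8 (CPM). Its ranges overlapped widely, and its blocked log2 fold change was -0.14 (SE 0.05, adjusted p = 0.29) by edgeR. Rimbp2, which links RIM to calcium channels, gave -0.12 (SE 0.05, adjusted p = 0.30). Its value was -0.08 with the block and without the libraries numbered 1, and -0.03 without the block and without the mSc library numbered 1, which lay at 147 CPM. The neurexin Nrxn2, a presynaptic adhesion receptor, gave -0.11 (SE 0.05, adjusted p = 0.40) and the scaffold Bsn gave -0.09 (SE 0.04, adjusted p = 0.45). Single libraries moved these values by over 1.5 times in the fit without the block. Sv2b ran from -0.24 without the mSc library numbered 2 to -0.08 without the one numbered 4. Nrxn2 ran from -0.16 without the mSc library numbered 2 to -0.07 without the Psmb8 library of that number, and Bsn from -0.16 to -0.01 without the same libraries. In Psmb5 against mSc the vesicle tetraspan Syngr1 (synaptogyrin 1) stood at 716 ± 44.2 in mSc, 674 ± 60.01 in Psmb5, 676 ± 57.9 in Psmb8 (CPM, SD, n = 6 each), with a blocked log2 fold change of -0.09 (SE 0.04, adjusted p = 0.72). None of these passed over all genes with edgeR.

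Between Psmb8 and Psmb5 cultures no member reached an unadjusted p under 0.05 in the blocked fit. The smallest blocked p was that of Stx1a, the syntaxin of the plasma membrane, at a log2 difference of 0.08 (SE 0.04, adjusted p = 0.67) by edgeR. Stx1a stood at 193 ± 11.3 in mSc, 188 ± 18.5 in Psmb5, 197 ± 11.5 in Psmb8 (CPM, SD, n = 6 each). Vamp2 was lower in Psmb8 than in Psmb5 in 6 of 6 pairs, with a log2 difference of -0.05 (95% interval -0.12 to 0.02) around means of 1016 and 1053 CPM. Rimbp2 was also lower in 6 of 6 of these pairs. Syngr3, Napb (a SNAP adaptor of the fusion ATPase), Cplx1 and Sv2a were 0.08, 0.06, 0.06 and 0.06 on the log2 scale, and Cplx2 was -0.07. In Psmb8 against mSc, Vamp1 was -0.10 and Sncb 0.07, and in Psmb5 against mSc Rims1 was 0.07.

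A wider list of 92 other presynaptic genes, of which 87 were tested, gave 1 call, in the blocked fit of Psmb8 against mSc. That fit called 0.325% of all genes. Rab3b, a vesicle GTPase related to Rab3a, was higher in Psmb8 than in mSc in the blocked edgeR fit (log2 fold change 0.22, SE 0.04, adjusted p = 0.024), and was not called without the block (0.22, SE 0.13). Its relatives among the members, Rab3a and Rab3c, gave 0.01 (SE 0.04) and -0.05 (SE 0.05). The median of the 87 was 0.02 in Psmb8 against mSc. On the receiving side of the synapse, all 50 listed postsynaptic genes were tested and 2 were called lower in Psmb8 than in mSc with the block, the scaffold Shank3 (-0.27, SE 0.04, adjusted p = 0.0039) and the NMDA receptor subunit Grin1 (-0.33, SE 0.05, adjusted p = 0.0060), with a median of -0.03. Without the block neither was called, at -0.27 (SE 0.11) for Shank3 and -0.33 (SE 0.11) for Grin1. Psmb5 against mSc and Psmb8 against Psmb5 gave 0 calls in both lists with the block. At an unadjusted p under 0.05 in the blocked fit of Psmb8 against mSc, 14 of the 87 presynaptic genes lay higher and 5 lower, and 1 of the 50 postsynaptic genes lay higher and 12 lower, where 10.7% of all genes passed in either direction. In Psmb5 against mSc 6 presynaptic genes lay higher and 3 lower, and 1 postsynaptic gene higher and 6 lower, where 6.87% of all genes passed. In Psmb8 against Psmb5 8 presynaptic genes lay higher and 8 postsynaptic genes lower, with 0 in the other directions, where 7.64% of all genes passed.

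The second question was how the same genes varied over the replicate numbers, each of which holds 1 library of every group. Here most of the machinery differed. With group in the fit, 35 of the 41 members differed between numbers (edgeR quasi-likelihood F test, adjusted p under 0.05), or 85.4%, against 64.3% of all tested genes and 74.9% of genes at a mean of 10 CPM or more. Without the libraries numbered 1, 3 or 6, which stood apart in marker genes, the counts were 34, 34 and 33. The 6 members that did not pass were the v-SNAREs Vamp1 and Vamp2, Rims1, the endocytic genes Dnm1 and Synj1, and the sparse Syt2. For 40 of the 41 members the means of the 6 numbers spread further than the means of the 3 groups, Dnm1 being the exception. The median range was 0.396 on the log2 scale over numbers and 0.063 over groups. Each number mean rests on 3 libraries and each group mean on 6, and 6 means are set against 3. A wider range over numbers is therefore partly built in, and the share of all genes with one was not counted. Over all tested genes, at any level, the median range over numbers was 0.417. The 2 medians were not matched for level, so they do not say whether the members spread further than genes of like level. Among the other presynaptic genes 73 of 87 differed between numbers (83.9%), and among the postsynaptic genes 46 of 50 (92%). For single genes below, the numbers set against each other were chosen after the values were seen, mostly as the highest and lowest. Separation of their libraries is therefore partly built in, and the share of all genes that separate in this way was not counted.

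**Figure D3:**
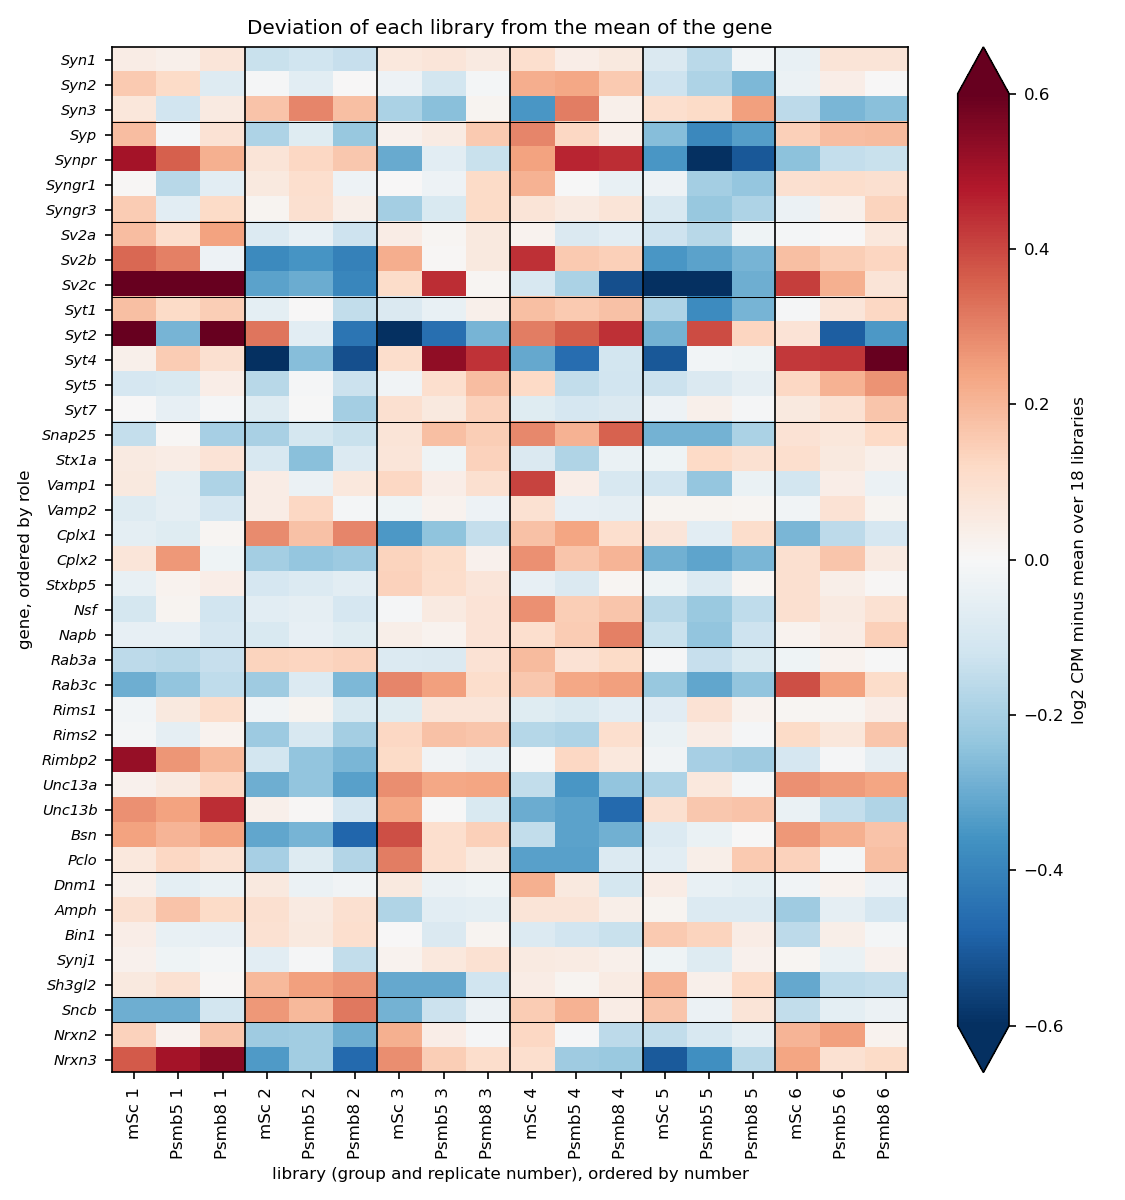
Deviation of each library from the mean of the gene, in log2 CPM, for the 41 genes in rows ordered by role and the 18 libraries in columns ordered by replicate number; horizontal lines separate roles and vertical lines separate numbers. The 3 libraries of a number mostly share their colour. Many rows are blue in numbers 2 and 5, with Cplx1, Sh3gl2 and Sncb red in number 2, and Sv2c, Nrxn3 and Synpr are red in number 1.

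Synapsins tether vesicles into clusters. Syn1 (chromosome X, 20860511 to 20921004, minus strand, GRCm38) was 554 to 561 CPM in the libraries numbered 2 and 627 to 654 CPM in those numbered 4, ranges that did not overlap, and its number means spanned 1.15-fold. Syn2 spanned 1.32-fold, from 434 to 479 CPM in number 5 to 582.5 to 615 CPM in number 4. Syn3, whose values are uncertain for the overlap with Timp3, ran from 15.1 to 16.4 CPM in number 6 to 20.6 to 22.4 CPM in number 2, so that its highest mean was in the number where Syn1 had its lowest.

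All 4 vesicle tetraspans were called lower in number 5 than in the other 5 numbers, where 14.7% of all genes were lower. Syp (chromosome X, 7638471 to 7653256, plus strand) stood at 1002, 916 and 950.2 CPM in the mSc, Psmb5 and Psmb8 libraries numbered 5 and at 1322, 1359 and 1366 CPM in those numbered 6. All 3 libraries of number 5 lay below all 3 of number 6, and the log2 difference of number 5 from the other 5 was -0.39 (SE 0.05, adjusted p = 1.3e-05) in edgeR. Synpr (synaptoporin, a relative of synaptophysin found in part of the neurons) had the widest spread of the family, 1.87-fold, with 23.9 to 30.6 CPM in number 5, 46.1 to 53.4 CPM in number 4 and 45.2 to 55.1 CPM in number 1. Syngr1 and Syngr3 spanned 1.19-fold and 1.18-fold, also with their lowest mean in number 5.

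SV2 proteins are vesicle glycoproteins, and Sv2a is the binding site of the antiepileptic drug levetiracetam. Sv2c had the widest range of all 41 members. It stood at 26.1, 20.7 and 24.3 CPM in the mSc, Psmb5 and Psmb8 libraries numbered 1 and at 8.10, 7.60 and 11.02 CPM in those numbered 5, a 2.66-fold difference between means. Every library numbered 1 lay above all 15 others. Against the other 5 numbers, the log2 difference was 0.96 (SE 0.10, adjusted p = 1.9e-07) for number 1 and -0.74 (SE 0.12, adjusted p = 1.0e-04) for number 5 in edgeR. Sv2b (chromosome 7, 75114894 to 75309262, minus strand) spanned 1.54-fold, from 554 to 573 CPM in number 2 and 575 to 605 CPM in number 5 to 809 to 993 CPM in number 4. Sv2a moved less, 1.21-fold, and was highest in number 1 at 772 to 852 CPM.

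Of the synaptotagmins, Syt1 ran from 698 to 798 CPM in number 5 to 1012 to 1029.5 CPM in number 4. Syt4 spanned 1.93-fold. It stood at 327, 417 and 346 CPM in the mSc, Psmb5 and Psmb8 libraries numbered 2 and at 669, 672 and 759.9 CPM in those numbered 6, so the lowest library of number 6 lay well above the highest of number 2. The log2 difference from the other 5 numbers was 0.58 (SE 0.07, adjusted p = 3.1e-06) for number 6 and -0.56 (SE 0.07, adjusted p = 1.2e-05) for number 2 in edgeR. Syt5 and Syt7, the latter a slow, high-affinity calcium sensor, shared the high mean in number 6 and the low mean in number 2 with smaller spans of 1.23-fold and 1.15-fold. Syt2, at 0.613 to 1.76 CPM in single libraries, spanned 1.81-fold without passing the test (adjusted p = 0.087, edgeR).

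The fusion proteins moved unevenly. Snap25 (chromosome 2, 136713453 to 136782428, plus strand) was 685 to 758 CPM in number 4 and 487 to 519.5 CPM in number 5, with a span of 1.45-fold, whereas its partner Vamp2 stayed within 1.095-fold (adjusted p = 0.22, edgeR F test) and Stx1a within 1.15-fold. Nsf, the ATPase that takes spent SNARE complexes apart, and its adaptor Napb were both highest in number 4 and lowest in number 5, at 1.30-fold and 1.27-fold. Stxbp5 (tomosyn, an inhibitor of SNARE assembly) spanned 1.14-fold and Vamp1 1.19-fold. The complexins, which bind the assembled SNARE complex, differed from each other. Cplx1 stood at 216, 201 and 218 CPM in the mSc, Psmb5 and Psmb8 libraries numbered 2 and at 140.0, 151 and 161 CPM in those numbered 3, without overlap. Cplx2 stood at 503, 494 and 498 CPM in number 2 and 636, 626 and 590.5 CPM in number 3, also without overlap but in the opposite order. The ratio of Cplx2 to Cplx1 in CPM was therefore 2.28 to 2.46 in number 2 and 3.66 to 4.54 in number 3, while its mean per group was 3.45 in mSc, 3.44 in Psmb5 and 3.13 in Psmb8. Numbers 2 and 3 were chosen here after the values were seen.

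Of the 9 active zone and Rab3 genes, 6 were called lower in number 2 (Bsn, Pclo, Rimbp2, Rims2, Unc13a and Rab3c) and 4 in number 4 (Bsn, Pclo, Unc13a and Unc13b), against the other 5 numbers in edgeR. Over all genes, 17.5% were lower in number 2 and 15.6% in number 4. Bsn (Bassoon; chromosome 9, 108096022 to 108190384, minus strand) stood at 441, 451 and 393 CPM in the mSc, Psmb5 and Psmb8 libraries numbered 2, 494, 439 and 448 CPM in number 4 and 646, 631 and 648 CPM in number 1. Every library of numbers 2 and 4 lay below every library of number 1. The log2 difference of Bsn was -0.43 (SE 0.05, adjusted p = 1.4e-06) for number 2 and -0.30 (SE 0.05, adjusted p = 7.4e-05) for number 4 in edgeR. Unc13a (Munc13-1, the main vesicle priming factor of the cortex) gave -0.34 in number 2, -0.29 in number 4, 0.30 in number 3 and 0.31 in number 6, all called. Pclo (Piccolo) gave -0.18 in number 2, -0.29 in number 4 and 0.19 in number 3, all called. Unc13b had the widest span of this group, 1.60-fold, from 39.1 to 44.0 CPM in number 4 to 63.9 to 73.4 CPM in number 1, and Rimbp2 was highest in number 1 at 117 to 147 CPM and spanned 1.45-fold. Rims2 was lowest in number 2 and spanned 1.26-fold, while Rims1 stayed within 1.09-fold. Of the vesicle GTPases that bind RIM, Rab3a was highest in number 2 at 328 to 329 CPM and lowest in number 1 at 267 to 272 CPM. Rab3c was low in numbers 1, 2 and 5, with log2 differences of -0.27, -0.22 and -0.31, and high in the other 3.

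Of the 5 endocytic genes, 3 differed between numbers (60%), a share below the 64.3% of all tested genes. Dnm1 spanned 1.056-fold over numbers, the narrowest range of the 41 members, and Synj1 (a lipid phosphatase that helps shed the clathrin coat) 1.097-fold. Amph and Bin1, membrane-bending amphiphysins, spanned 1.19-fold and 1.17-fold, with Amph high in number 1 and Bin1 high in number 5. Sh3gl2 (endophilin A1, which recruits dynamin and synaptojanin) spanned furthest of them, at 173 to 183 CPM in number 2 and 122 to 139 CPM in number 3, and 1.40-fold in all. Sncb (beta-synuclein, a vesicle-associated protein) stood at 328, 313 and 341 CPM in the mSc, Psmb5 and Psmb8 libraries numbered 2 and at 223, 223 and 253 CPM in those numbered 1. Both neurexins differed between numbers, as did 64.3% of all tested genes. Nrxn3 (chromosome 12, 88722876 to 90334935, plus strand) was 210.2 to 238 CPM in number 1, 118 to 141 CPM in number 2 and 115 to 145 CPM in number 5, a span of 1.76-fold, and Nrxn2 spanned 1.31-fold with its low mean in number 2.

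**Figure D4:**
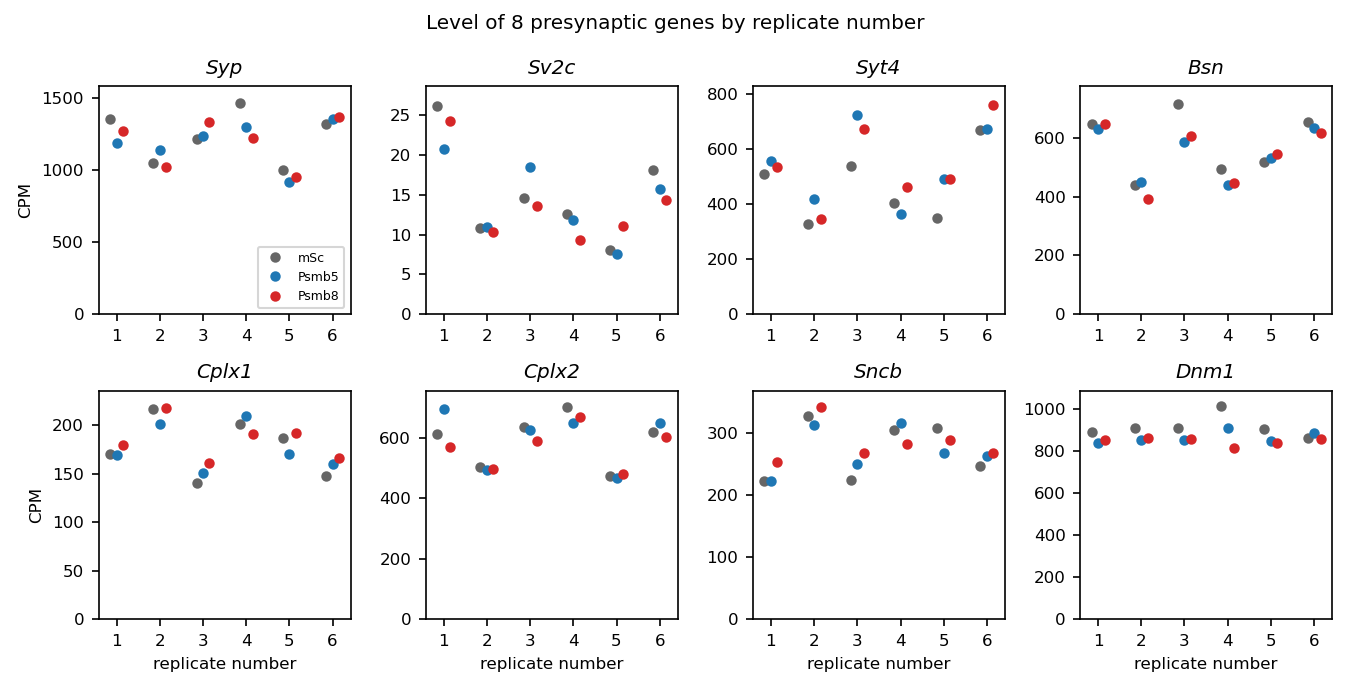
CPM of 8 genes against replicate number, with axes from 0; each point is a library, coloured and shifted sideways by group. Syt4 and Sv2c span the widest ranges, Cplx1 is high in number 2 where Cplx2 is low, and Dnm1 hardly varies.

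Each number was tested against the mean of the other 5 in edgeR. More members were called lower than higher in numbers 2 and 5, and more higher than lower in each remaining number. In number 2, 18 members were lower and 5 higher, where 17.5% of all genes were lower and 13.5% higher. In number 5, 18 were lower and 3 higher, where 14.7% of all genes were lower and 12.3% higher. The lower sets shared 10 genes (10 of 18 in each): Cplx2, Nrxn3, Rab3c, Rimbp2, Snap25, Sv2b, Sv2c, Syn1, Syp and Syt4. The scaffolds Bsn and Pclo with Unc13a, Rims2, Stx1a, Stxbp5, Syt7 and Nrxn2 were lower in number 2 and not called in number 5, and Syt1, Syn2, Synpr, Syngr1, Syngr3, Sv2a, Nsf and Napb were lower in number 5 and not called in number 2. The difference between these 2 numbers was not itself tested. The 5 members higher in number 2 were Cplx1, Rab3a, Sh3gl2, Sncb and Syn3, and the 3 higher in number 5 were Bin1, Sh3gl2 and Unc13b. Of the 87 other presynaptic genes tested, 29 were lower and 14 higher in number 2, and 22 lower and 15 higher in number 5.

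In number 1, 12 members were higher and 4 lower, where 19.6% of all genes were higher and 14.0% lower. In number 4, 13 were higher, with Snap25 (0.34), Synpr (0.46) and Sv2b (0.30) leading on the log2 scale, and 9 lower, led by Unc13b (-0.44) and Syt4 (-0.34), where 17.7% of all genes were higher and 15.6% lower. In number 3, 10 were higher and 4 lower, where 10.5% and 9.44% of all genes were, and in number 6, 11 were higher and 5 lower, where 14.1% and 12.5% were. Numbers 3 and 6 shared 6 of their higher members (Bsn, Rab3c, Rims2, Syt4, Syt7 and Unc13a) and 3 of their lower ones (Amph, Cplx1 and Sh3gl2). Here too the overlap over all tested genes was not counted. A number's contrast contains the other numbers with the opposite weight, so these counts are not independent of each other.

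**Figure D5:**
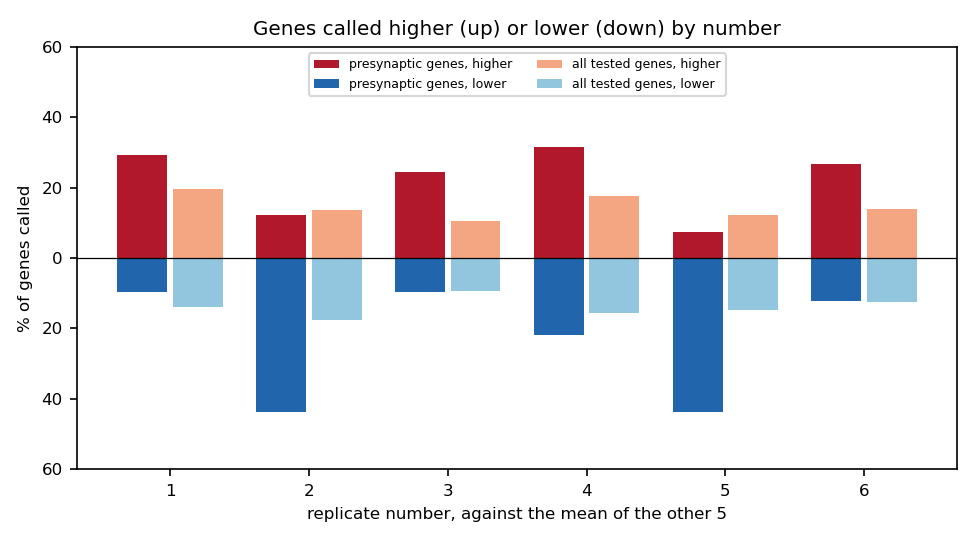
Share of genes called higher (upward bars) or lower (downward bars) in each replicate number against the mean of the other 5, for the 41 presynaptic genes (dark) and all 15671 tested genes (light), in percent. The downward dark bars in numbers 2 and 5 stand for 18 of 41 members each.

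Other gene groups moved with the same numbers, and their counts stand against the shares of all genes given above for each number. In number 1, 17 of 17 astrocyte markers were called higher, 8 of 9 tested oligodendrocyte markers and 9 of 15 inhibitory neuron markers. In number 2, 13 of 15 inhibitory neuron markers were higher. There, 33 of 50 postsynaptic genes were lower and 2 higher. Astrocyte markers split into 8 of 17 lower and 3 higher, and interferon-stimulated genes into 13 of 20 lower and 3 higher. In number 5, 21 of 50 postsynaptic genes were lower and 3 higher, and 9 of 17 astrocyte markers were lower and 2 higher. There, 11 of 20 interferon-stimulated genes and 5 of 15 general neuronal markers were lower, with 0 of either list higher. Astrocyte markers were also called lower in numbers 3 (11 of 17), 4 (8 of 17) and 6 (12 of 17), with 0, 3 and 0 higher. In number 1, 11 of 20 interferon-stimulated genes were lower and 1 higher. For numbers 2 and 5 the other 5 numbers include number 1, with high astrocyte markers, and numbers 3 and 6, with high interferon-stimulated genes. General neuronal markers in number 2 were split, with 3 higher and 4 lower. In number 4, 8 of 8 cycling cell markers were higher and 20 of 20 interferon-stimulated genes lower, with 9 of 15 general neuronal markers higher. Interferon-stimulated genes were higher in number 3 (17 of 20, with 1 lower) and number 6 (20 of 20), and in number 6 all 8 cycling cell markers were lower. Postsynaptic genes were higher in number 6 (25 of 50, with 5 lower) and equally in number 1 (25 of 50, with 1 lower). Oligodendrocyte markers were lower in numbers 3 (6 of 9) and 6 (7 of 9), with 0 higher. Inhibitory neuron markers were lower in numbers 3 (7 of 15, with 1 higher) and 6 (9 of 15, with 0 higher). Summed general neuronal markers were 5394 to 5626 CPM in number 2, 5428 to 5569.5 CPM in number 5 and 5762 to 6126 CPM in number 4. The summed level of the 41 members was 14947 to 15725 CPM in number 2 and 14877 to 15283 CPM in number 5. It was 16708 to 17989 CPM in the other 4 numbers, without overlap on this TMM-adjusted scale. As a share of raw counts there was overlap, with 1.640% in the Psmb5 library numbered 2 and 1.603% to 1.637% in the libraries numbered 1. Numbers 2 and 5 were set apart here after the values were seen. The part of these other groups in the values of the members was not tested.

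Ratios of CPM within families differed between numbers too. Unc13a to Unc13b was 9.34 to 9.96 in number 2 and 14.5 to 15.6 in number 6, with group means of 11.4 in mSc, 11.9 in Psmb5 and 12.3 in Psmb8. Sv2b to Sv2a was 0.820 to 0.838 in number 2 and 1.17 to 1.36 in number 4, with group means of 1.08, 1.04 and 0.965. Nrxn2 to Nrxn3 was 5.35 to 6.36 in number 1 and 8.05 to 9.57 in number 5, with group means of 7.68, 7.61 and 7.32. These pairs of numbers were chosen after the ratios were seen. Vamp2 to Vamp1 ranged from 20.2 to 29.9 over the libraries, with number means between 23.3 and 27.8.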

How the data were processed

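Poly(A) RNA libraries of 18 cultures were analysed from the authors' deposited table of raw counts per Ensembl gene. The submitters' processing notes name STAR 2.4, DESeq2 and the builds GRCm39 and mm10; for the gene counter and strand setting, the method is not given in the sources used. The 41 genes, the other gene lists and the tests were chosen with earlier results of these data known. With R 4.3.3 and edgeR 4.0.16, low counts were filtered by group (filterByExpr), library sizes were scaled by TMM, and 15671 genes were tested by quasi-likelihood with Benjamini-Hochberg adjustment at 0.05. The main fit has the group alone. The replicate number, which the labels do not explain, was added as a block and tested by itself with the group in the fit. In deviations from group means, 18 same-numbered pairs correlated at 0.447 to 0.729 and 90 others at -0.535 to 0.648, and with every same-numbered correlation above 0.1 the numbers were taken to pair the libraries. DESeq2 1.42.0 and limma 3.58.1 were alternatives. Named members had the 8 smallest blocked p-values of a comparison, the highest level per length or the widest range over numbers in their role; other members are given by values and chosen after those were seen. Scripts were tested on simulated data. Rows without a symbol (1167 of 43629) stayed in the fit. Totals of 15337511 to 21074229 counts set the precision. Each interval gives the uncertainty of a difference between group means in its fit, from the variation between libraries that the fit leaves.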

Additional observations from a re-analysis of the deposited data

Results flagged for a closer look

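A library stood away from the other 5 of its group in 4 of the 123 gene-by-group sets of the 41 members (Dixon's test at the 95% level), where chance gives about 1 in 20. Syngr3 was lowest in the Psmb8 library numbered 5, at 246.5 CPM with the next at 287 CPM. Sv2c was highest in the Psmb8 library numbered 1, at 24.28 CPM with the next at 14.3 CPM, and the mSc and Psmb5 libraries of that number were also the highest of their groups. Rimbp2 was highest in the mSc library numbered 1, at 146.9 CPM with the next at 111 CPM. Dnm1 was highest in the mSc library numbered 4, at 1013 CPM with the next at 910.2 CPM.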

How the results depend on the processing

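In each of the 3 group comparisons 0 of 41 members were called under all 31 alternatives, which covered the tool, scaling, filter, samples in the fit, each library left out and the replicate block. The replicate block alone also gave 0, 0 and 0. The smallest adjusted p of any member was 0.106 in Psmb8 against mSc (block with DESeq2), 0.103 in Psmb5 against mSc and 0.471 in Psmb8 against Psmb5 (both block without number 4). The log2 fold change of Syt4 in Psmb8 against mSc ranged from 0.10 to 0.36 and that of Dnm1 from -0.13 to -0.07, without a change of direction. Smaller values were less stable when 1 library was left out. In Psmb8 against mSc Sncb ran from -0.003 to 0.12 and Sv2a from -0.03 to 0.06, and in Psmb8 against Psmb5 Cplx1 ran from 0.007 to 0.12 and Napb from 0.006 to 0.10. In Psmb5 against mSc Rimbp2 ran from -0.15 to 0.02. With the block and each number left out in turn, 4 to 7, 2 to 5 and 0 to 3 members had an unadjusted p under 0.05 in the 3 comparisons. Over replicate numbers, 34 to 35 members were called under other settings and 32 to 35 with a number left out. Alternatives for single numbers were chosen after seeing the data; they left 15 to 19 members lower in number 2 and 17 to 20 in number 5. Depth limits Syt2 most, and the meaning of the number limits all comparisons.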
